A study of Homo sapiens with 36 samples.

Results

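The BCL2 family with PMAIP1 comprised 10 genes, PMAIP1, BBC3, BIK, BID, BCL2L11, BCL2, BCL2L1, MCL1, BAX and BAK1, chosen by gene name. The list was drawn up with earlier results of these data known, so counts of members beside shares of all genes only describe it. All 22 probes annotated to these symbols were taken, of 48105 probes and 20045 genes tested. Proteins of this family decide whether the outer mitochondrial membrane is permeabilized, the committing step of intrinsic apoptosis. BCL2, BCL2L1 (BCL-xL) and MCL1 are guardians that keep the effectors BAX and BAK1 from forming pores, and the BH3-only proteins PMAIP1 (NOXA), BBC3 (PUMA), BIK, BID and BCL2L11 (BIM) bind the guardians or activate the effectors. NOXA binds chiefly MCL1 and is a well known target of p53 and of stress factors such as ATF4. Prostate epithelium depends on androgen for survival, and BCL2 is classically linked to growth of prostate cancer after androgen withdrawal.

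Gene expression was measured on 36 Illumina BeadArrays of LNCaP cells, an androgen-sensitive human prostate cancer line. LNCaP/Empty carried the empty retroviral vector, and the clones HIF12 and HIF49 carried a stable HIF1a transgene with substitutions that keep the protein from being degraded in oxygen. LNCaP/Empty and HIF12 were measured with vehicle (0.01% ethanol) or with the synthetic androgen R1881 at 1 nM for 4 h, after 96 h in charcoal stripped serum, and all 3 lines were measured as Normal, a condition that the labels do not define further. LNCaP/Empty Normal had 6 arrays and each of the other 6 groups had 5. HIF12 and HIF49 are each a single clone, so that HIF1a expression and clonal differences cannot be told apart. Separate cultures are not stated for the arrays within a group, so p-values measure the spread between arrays, which may be technical.

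Between 15374 and 17839 probes were detected per array, at a detection p under 0.01. Of the 6 luminal prostate markers with a probe, 5 were detected on all arrays and KLK2 on 33, whereas none of the 3 basal keratin probes, KRT5, KRT14 and KRT15, was detected on any array. HIF1A probe 1 read 9.46 to 10.31 on the log2 scale in HIF12 and 7.94 to 8.94 in LNCaP/Empty, and HIF1A probe 3 read 8.71 to 9.31 against 7.05 to 8.13. HIF1A probe 2 overlapped, at 8.11 to 9.08 in HIF12 and 7.70 to 9.03 in LNCaP/Empty. The library labelled HIF49 Normal replicate 1 stood apart on HIF1A probe 1, at 7.45 against 10.00 to 10.35 on the other 4 HIF49 arrays, and on probe 3, at 7.09 against 8.78 to 9.08, but not on probe 2, at 8.76. It also had the fewest probes detected, and the member differences described for HIF49 are given with and without it. KLK3, the androgen target that encodes PSA, read 7.20 to 8.16 with vehicle and 9.00 to 9.09 with R1881 in LNCaP/Empty, and 6.27 to 7.00 against 7.31 to 8.00 in HIF12. Under Normal KLK3 read 9.56 to 9.96 in LNCaP/Empty and 8.58 to 8.91 in HIF12, above the vehicle arrays of each line. In HIF12 vehicle, replicate 4 had a level of 12.55 for the androgen target TMPRSS2, against 11.04 to 11.26 on the other 4 arrays. KLK3 on that array read 6.73, within the range of its group.

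Promoters of 8 of the 10 members were found in RefSeq (GRCh38.p14). The 250 bases before the start are shown for PMAIP1, the member that responded to R1881, and for BAX, whose promoter held the most matches to ACGTG. Capitals mark matches on either strand to ACGTG, the core of the HIF response element, to TGACGT, a half-site of ATF and CREB factors, or to AGAACA, a half-site of the androgen response element. The first 2 motifs overlap wherever TGACGTG occurs. PMAIP1 lies at chr18:59899746-59899995 on the plus strand and BAX at chr19:48954625-48954874 on the plus strand.
PMAIP1: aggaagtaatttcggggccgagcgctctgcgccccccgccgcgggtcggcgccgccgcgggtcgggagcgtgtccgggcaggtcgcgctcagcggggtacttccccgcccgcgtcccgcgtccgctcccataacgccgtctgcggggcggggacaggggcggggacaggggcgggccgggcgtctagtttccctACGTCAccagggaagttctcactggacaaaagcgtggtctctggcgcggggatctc
BAX: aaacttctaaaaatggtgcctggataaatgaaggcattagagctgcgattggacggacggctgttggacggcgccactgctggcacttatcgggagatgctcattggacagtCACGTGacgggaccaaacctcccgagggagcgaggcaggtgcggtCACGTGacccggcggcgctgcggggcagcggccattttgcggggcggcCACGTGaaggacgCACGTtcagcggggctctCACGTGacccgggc
PMAIP1 held 1 match to TGACGT, at position -56 from the start on the minus strand, and BAX held 9 matches to ACGTG, each CACGTG being read on both strands. Of the 8 member promoters, ACGTG was present in 2, BBC3 and BAX, and TGACGT in PMAIP1 alone, while no AGAACA was found in these windows. Among all 35116 promoters of this length, 18.5% held ACGTG, 7.1% TGACGT and 12.4% AGAACA. Forms of the HIF core other than ACGTG were not searched, so a promoter without ACGTG, such as that of PMAIP1, may still hold the core. These matches describe the letters only and no binding was measured here.

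R1881 increased PMAIP1 in both lines, and none of the other 9 members was called. In the accounts that follow, levels are log2 intensities after background correction and quantile normalization, differences are on that log2 scale with their standard errors, and a gene was called when at least 1 probe had an adjusted p under 0.05 in limma and a change of at least 1.5-fold. PMAIP1 had a bright probe, detected on 36 of 36 arrays, and a dim probe, detected on 17.

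In LNCaP/Empty vehicle, the bright PMAIP1 probe read 7.17, 7.57, 7.17, 7.66 and 7.11. With R1881 it read 8.68, 8.89, 8.68, 8.92 and 9.05. Every R1881 array was above every vehicle array, with a gap of 1.02 between the groups. The difference was 1.51 (SE 0.17), a 2.85-fold increase (adjusted p = 6.3e-08, n = 5 arrays per group, limma). PMAIP1 was thus 1 of 10 members called higher, where 1.30% of all genes were called higher and 0.519% lower. The dim probe read 5.35 to 5.98 with vehicle, where 1 of 5 arrays detected it, and 5.77 to 6.29 with R1881, where 3 did, and did not pass (0.36, SE 0.18, adjusted p = 0.55).

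In HIF12 vehicle, the bright PMAIP1 probe read 7.68, 8.14, 7.86, 8.49 and 7.91. With R1881 it read 8.88, 9.28, 8.70, 9.31 and 9.25. The groups did not overlap, although replicate 4 of the vehicle group, the array with the high TMPRSS2 level, came within 0.22 of the lowest R1881 array. The difference was 1.07 (SE 0.17), a 2.10-fold increase (adjusted p = 6.2e-05), and 1.19 (adjusted p = 1.4e-05) without that array. The dim PMAIP1 probe also rose, from 5.17 to 6.15 with vehicle to 6.33 to 6.87 with R1881, and its 5 R1881 arrays lay above all vehicle arrays (0.85, SE 0.18, 1.80-fold, adjusted p = 0.0044). PMAIP1 was again the single member called, where 1.07% of all genes were called higher and 0.244% lower. The call of the dim probe was lost without background correction, where its difference was 0.39 (adjusted p = 0.0018), below 1.5-fold, and likewise with plain normexp (0.45) and in the deposited normalized table (0.39).

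The R1881 effect on PMAIP1 was not shown to differ between the lines. On the bright probe the effect in HIF12 minus that in LNCaP/Empty was -0.44 (SE 0.24, 95% confidence interval -0.91 to 0.04, adjusted p = 1.00). On the dim probe it was 0.48 (SE 0.25, 95% confidence interval -0.03 to 0.99, adjusted p = 1.00). The probes thus had opposite signs, and the intervals leave room for a sizeable difference either way. Of the 22 member probes 1 had an unadjusted p under 0.05 for this difference in limma, that of BAK1 (-0.82, SE 0.34, adjusted p = 1.00), and no member was called, where 0% of genes were called higher and 0.00998% lower.

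**Figure D1:**
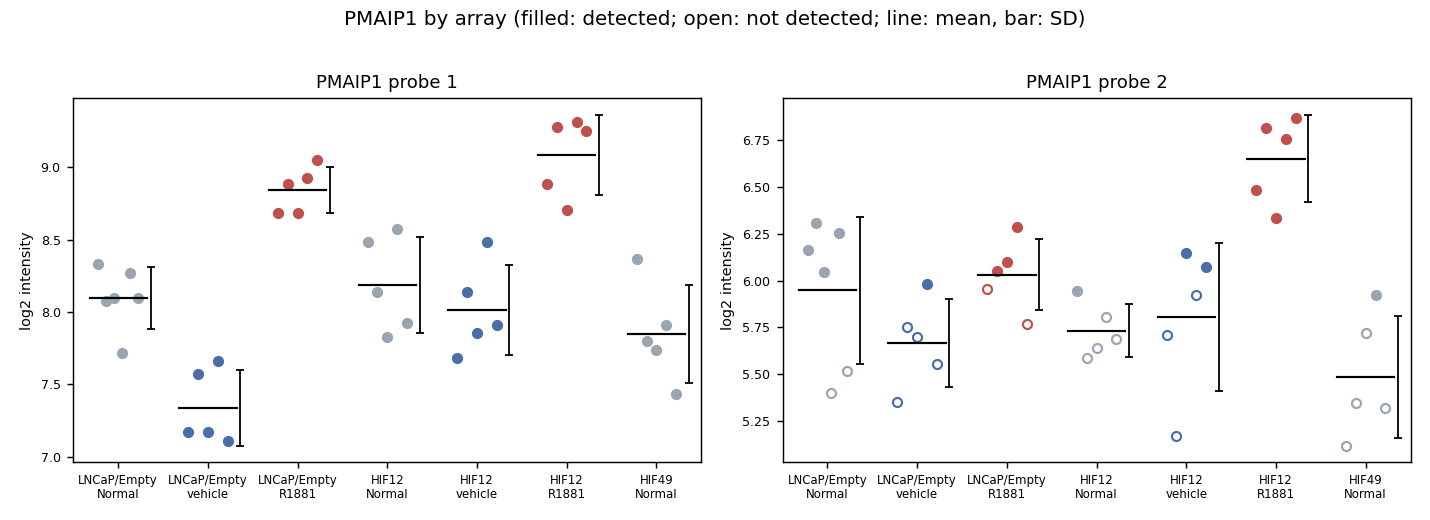
Log2 intensity of PMAIP1 probe 1 (left, detected on all arrays) and probe 2 (right) on each of the 36 arrays, by line and condition, with the mean as a line and the SD as a bar. On probe 1 all R1881 arrays, 8.68 to 9.31, lie above all vehicle arrays, 7.11 to 8.49, and the LNCaP/Empty vehicle group has the lowest mean, 7.34.

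PMAIP1 also differed between the vehicle groups. The bright probe read 7.11 to 7.66 in LNCaP/Empty and 7.68 to 8.49 in HIF12, and the closest arrays of the 2 groups were only 0.02 apart. It was higher in HIF12 by 0.68 (SE 0.17, 1.60-fold, adjusted p = 0.016), the single member called, where 0.958% of all genes were called higher and 0.908% lower. Without HIF12 vehicle replicate 4 the difference was 0.56 (adjusted p = 0.079), and the call was also lost without LNCaP/Empty vehicle replicate 3 (0.64, adjusted p = 0.053) or 5 (0.62, adjusted p = 0.050), without background correction (0.47, adjusted p = 0.011), in the deposited normalized table (0.47, adjusted p = 0.011), with plain normexp (0.51) and with running numbers in blocks of 6 (0.52). The dim probe did not pass in this comparison (0.14, SE 0.18, adjusted p = 0.87).

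With R1881 in both lines, the bright PMAIP1 probe overlapped, at 8.68 to 9.05 in LNCaP/Empty and 8.70 to 9.31 in HIF12 (0.24, SE 0.17, adjusted p = 0.58). The dim probe read 5.96, 6.05, 6.10, 6.29 and 5.77 in LNCaP/Empty and 6.48, 6.82, 6.33, 6.76 and 6.87 in HIF12. It was called higher in HIF12 by 0.62 (SE 0.18, 1.54-fold, adjusted p = 0.038), where 1.57% of all genes were called higher and 1.16% lower. The call rested on a gap of 0.05 between the groups and was lost on leaving out any of 7 of the 10 arrays, LNCaP/Empty replicates 1, 2, 3 and 5 and HIF12 replicates 2, 4 and 5, with differences of 0.55 to 0.64 and adjusted p-values of 0.056 to 0.12. It was also lost without background correction (0.29), with plain normexp (0.34), in the deposited normalized table (0.29) and with running numbers in blocks of 6 (0.57). Both probes had higher means in HIF12 with vehicle and with R1881, and a different probe passed in each. Under Normal the dim probe had a lower mean in HIF12 than in LNCaP/Empty.

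Under Normal, no PMAIP1 probe passed. The bright probe read 7.72 to 8.33 in LNCaP/Empty, 7.83 to 8.57 in HIF12 and 7.44 to 8.36 in HIF49. HIF12 minus LNCaP/Empty was 0.09 (SE 0.16, adjusted p = 0.94), HIF49 minus LNCaP/Empty was -0.25 (SE 0.16, adjusted p = 0.57), and HIF49 minus HIF12 was -0.34 (SE 0.17, adjusted p = 0.36). The array at 8.36 was the library labelled HIF49 Normal replicate 1, and without it these last differences were -0.38 (adjusted p = 0.31) and -0.47 (adjusted p = 0.12). On the dim probe, HIF12 minus LNCaP/Empty was -0.21 (SE 0.17, adjusted p = 0.77, limma). HIF49 minus LNCaP/Empty was -0.46 (SE 0.17, adjusted p = 0.17) on that probe, and -0.37 (adjusted p = 0.41) without that library. HIF49 minus HIF12 was -0.25 (adjusted p = 0.61), and -0.16 (adjusted p = 0.83) without it.

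Within LNCaP/Empty, PMAIP1 was lower with vehicle than under Normal on its bright probe. The bright probe read 8.33, 8.07, 8.10, 7.72, 8.27 and 8.09 under Normal, each above the vehicle arrays, the highest of which was 7.66. It fell by 0.76 (SE 0.16, 1.69-fold, adjusted p = 8.3e-04), and the call was lost without background correction, where it fell by 0.53 (adjusted p = 4.2e-04), with plain normexp (-0.57) and in the deposited normalized table (-0.52). The dim probe did not pass in LNCaP/Empty (-0.28, adjusted p = 0.41, limma). In HIF12 the corresponding groups of the bright probe overlapped, at 7.68 to 8.49 with vehicle and 7.83 to 8.57 under Normal (-0.17, SE 0.17, adjusted p = 0.69). The difference between these effects, compared after the values were seen, was 0.59 (SE 0.23, adjusted p = 0.66) and did not pass. No member was called for that difference in limma, where 0.140% of all genes were called higher and 0.0898% lower. Of the 22 probes, 2 had an unadjusted p under 0.05, a looser threshold than that of the calls.

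The 7 group means of the bright PMAIP1 probe ran from 7.34 ± 0.26 (SD) in LNCaP/Empty vehicle over 7.85 ± 0.34 in HIF49 Normal, 8.01 ± 0.31 in HIF12 vehicle, 8.10 ± 0.21 in LNCaP/Empty Normal and 8.19 ± 0.33 in HIF12 Normal to 8.85 ± 0.16 in LNCaP/Empty R1881 and 9.09 ± 0.28 in HIF12 R1881. Neighbours in this order overlapped everywhere except between HIF12 Normal, whose highest array was 8.57, and LNCaP/Empty R1881, whose lowest was 8.68. The same LNCaP/Empty vehicle arrays entered the comparisons with R1881, with HIF12 and with Normal, so these results are not independent of each other. The genes whose probes followed the bright PMAIP1 probe most closely over the 36 arrays, among 10951 genes, were CDYL2 (Pearson r = 0.88), a chromodomain protein, PLPP6 (0.87), a lipid phosphatase, ERRFI1 (0.87), a feedback inhibitor of the EGF receptor, LIFR (0.86), a cytokine receptor, and FRK (0.86), a tyrosine kinase related to Src. These values describe arrays that share groups and processing. Their fitted differences with R1881 ran from 0.57 for PLPP6 to 2.26 for ERRFI1 in LNCaP/Empty and from 0.77 for PLPP6 to 1.99 for ERRFI1 in HIF12.

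**Figure D2:**
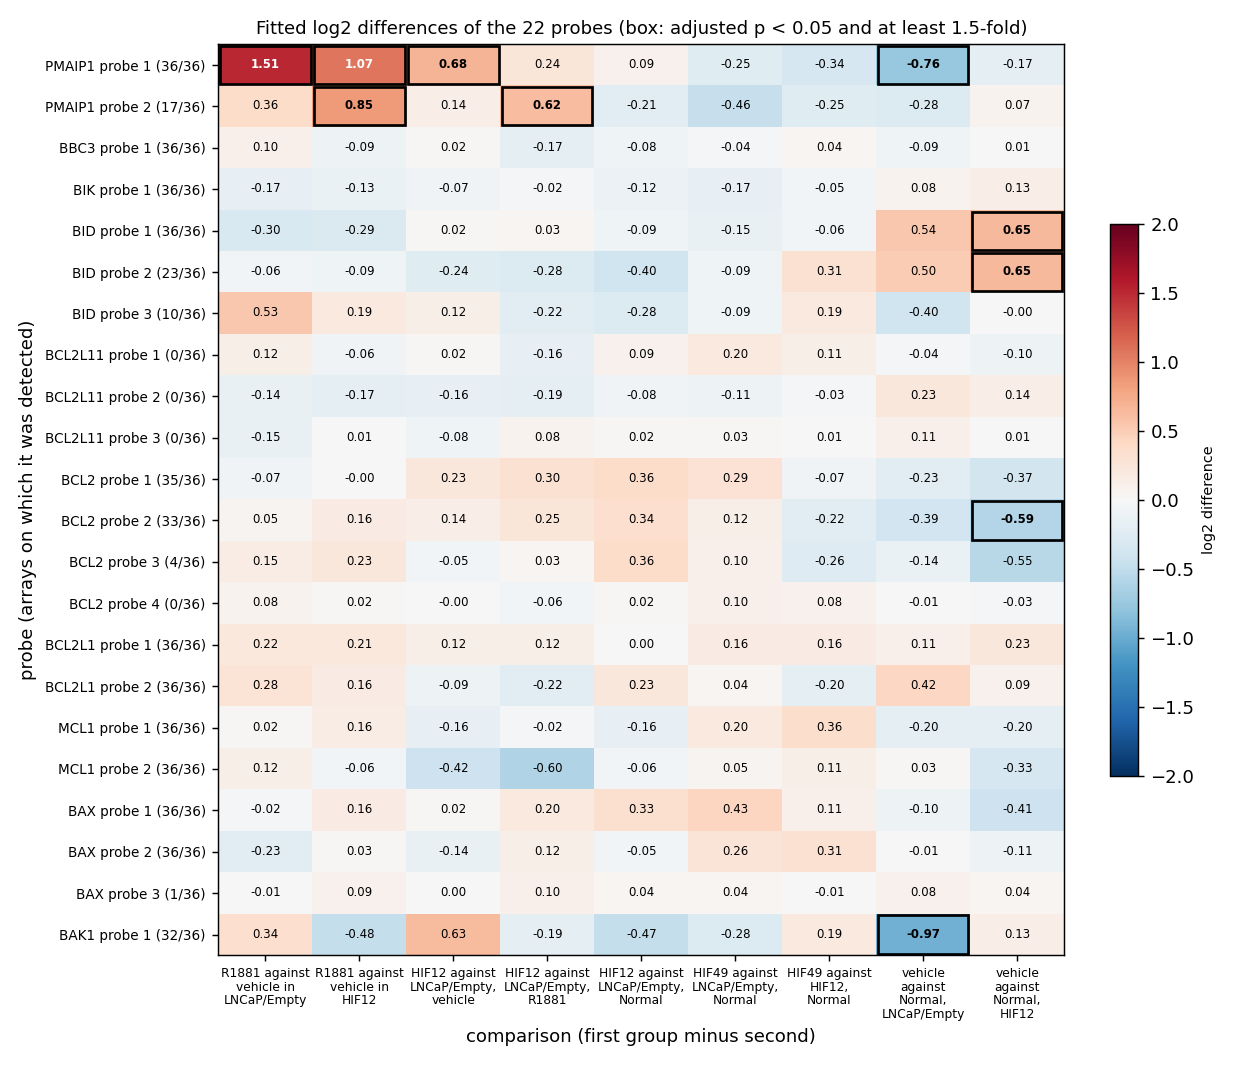
Fitted log2 difference of each of the 22 member probes (rows, with the number of arrays on which each was detected) in 9 comparisons (columns, first group minus second), with boxes around probes at an adjusted p under 0.05 and at least 1.5-fold. Boxes are on PMAIP1 in both R1881 columns and both HIF12 against LNCaP/Empty columns with vehicle or R1881, and on PMAIP1, BAK1, BID and BCL2 in the vehicle against Normal columns.

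Among the other BH3-only genes, BID was higher with vehicle than under Normal. BID is cleaved by caspases of the death receptor pathway and its fragment activates BAX and BAK1. In HIF12, BID probe 1 read 7.47, 7.61, 7.14, 7.14 and 7.11 under Normal and 7.97, 7.95, 7.86, 7.92 and 8.03 with vehicle. No array overlapped, and the difference was 0.65 (SE 0.12, 1.57-fold, adjusted p = 1.6e-04). The call of BID probe 1 was lost by size without background correction (0.44), with plain normexp (0.48) and in the deposited normalized table (0.44). In LNCaP/Empty the arrays were likewise separate, at 7.10 to 7.67 under Normal and 7.78 to 8.09 with vehicle, with a difference of 0.54 (SE 0.11, adjusted p = 8.4e-04) that at 1.46-fold was just under the fold required for a call. Leaving out LNCaP/Empty Normal replicate 2 (0.60) or 4 (0.59) brought it past that fold.

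The effect on BID probe 1 was not shown to differ between the lines (0.11, SE 0.16, adjusted p = 0.97). BID probe 2 was detected on none of the 5 HIF12 Normal arrays and on 4 of the 5 vehicle arrays, where it was at least 1.16-fold higher (adjusted p = 0.047), a call lost on leaving out HIF12 Normal replicate 1, 2 or 4 or HIF12 vehicle replicate 1, 2, 4 or 5 (adjusted p = 0.057 to 0.14). BID probe 3, detected on 10 of 36 arrays, did not pass there (adjusted p = 1.00). Over the arrays, BID probe 2 followed probe 1 at a Pearson r of 0.64. BID probe 3 followed probe 1 at -0.33, so probe 2 moved with probe 1 and probe 3 did not. With R1881 against vehicle BID probe 1 differed by -0.30 (SE 0.12, adjusted p = 0.35) in LNCaP/Empty and -0.29 (SE 0.12, adjusted p = 0.52) in HIF12, neither past the test. BID probe 1 in HIF49 Normal read 7.10 to 7.38.

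BBC3, BIK and BCL2L11 were not called in any of the comparisons. BBC3, a p53 target that binds every guardian, was detected on all 36 arrays and stayed between 6.65 and 7.34. Its largest difference between groups was -0.17 (SE 0.11, adjusted p = 0.52) for HIF12 against LNCaP/Empty with R1881. BIK, which acts at the endoplasmic reticulum, read 7.95 to 8.53 on 35 arrays and 7.40 on the library labelled HIF49 Normal replicate 1. HIF49 minus LNCaP/Empty was -0.17 (SE 0.13, adjusted p = 0.65) for BIK with that array and 0.01 (SE 0.10, adjusted p = 0.99) without it. The 3 probes of BCL2L11 were detected on no array, so changes of BIM could not be measured here.

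Of the guardians, BCL2 was lower with vehicle than under Normal in HIF12 on 1 probe. BCL2 probe 2 read 6.60, 6.62, 6.47, 7.15 and 6.49 under Normal and 6.10, 5.68, 6.23, 6.13 and 6.24 with vehicle. The groups did not overlap, and the probe fell by 0.59 (SE 0.14, 1.51-fold, adjusted p = 0.0042). BCL2 fell below 1.5-fold without HIF12 Normal replicate 4, the array at 7.15 (-0.47, adjusted p = 0.027), or without HIF12 vehicle replicate 2, the array at 5.68 (-0.49, adjusted p = 0.026), and with cyclic loess (-0.57, adjusted p = 0.0057). It was -0.28 without background correction and in the deposited normalized table, and -0.33 with plain normexp, also under 1.5-fold. BCL2 probe 1, annotated to the same transcript, gave -0.37 (SE 0.14, adjusted p = 0.10), also with separate arrays. In LNCaP/Empty the same comparison gave -0.39 (SE 0.14, adjusted p = 0.068) on BCL2 probe 2, with overlapping arrays. BCL2 probes 3 and 4, annotated to another transcript, were detected on 4 and 0 arrays.

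BCL2L1 and MCL1 were not called in any comparison. BCL2L1 probe 1, detected on all arrays, read 11.56 to 11.67 in HIF12 with R1881 and 11.36 to 11.41 with vehicle, separate by 0.15, but the difference of 0.21 (SE 0.08, adjusted p = 0.40) did not pass. In LNCaP/Empty BCL2L1 differed by 0.22 (SE 0.08, adjusted p = 0.28) with R1881, and 1 vehicle array at 11.42 lay within the R1881 range of 11.41 to 11.58. MCL1, the short-lived guardian that NOXA binds, had on probe 1 a difference of 0.02 (SE 0.09, adjusted p = 0.99) with R1881 in LNCaP/Empty and 0.16 (SE 0.09, adjusted p = 0.82) in HIF12, where the arrays did not overlap. MCL1 probe 1 was higher in HIF49 than in HIF12 under Normal by 0.36 (SE 0.09, adjusted p = 0.012), a 1.28-fold difference under the fold required. Without the library labelled HIF49 Normal replicate 1, whose MCL1 level of 10.27 was the highest of all arrays, it was 0.28 (adjusted p = 0.061). MCL1 probe 2, which read 6.84 on that array and 7.43 to 9.12 on the others, followed probe 1 at a Pearson r of 0.04 over the arrays.

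Of the effectors, BAK1 was lower with vehicle than under Normal in LNCaP/Empty. Its single probe read 6.79, 6.38, 7.20, 7.49, 6.96 and 7.04 in LNCaP/Empty under Normal and 5.38, 5.91, 5.73, 6.31 and 6.71 with vehicle. The groups overlapped through the vehicle array at 6.71, and BAK1 was detected on 2 of the 5 vehicle arrays. It fell by 0.97 (SE 0.23, 1.96-fold, adjusted p = 0.0031). In HIF12 BAK1 read 6.25 to 7.07 under Normal and 6.21 to 6.93 with vehicle (0.13, SE 0.24, adjusted p = 0.87). The difference between the lines in this effect, compared after the values were seen, was 1.10 (SE 0.33, 95% confidence interval 0.43 to 1.78) and did not pass after adjustment (adjusted p = 0.36). BAK1 was lost as a call without background correction, where it fell by 0.48 (adjusted p = 0.0014), with plain normexp (-0.55) and in the deposited normalized table (-0.48). R1881 gave BAK1 differences of 0.34 (SE 0.24, adjusted p = 0.80) in LNCaP/Empty and -0.48 (SE 0.24, adjusted p = 0.72) in HIF12.

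BAX had no call. BAX probe 1 read 9.24 to 9.61 in LNCaP/Empty Normal, 9.63 to 9.82 in HIF12 Normal and 9.46 to 10.15 in HIF49 Normal. HIF12 Normal lay just above LNCaP/Empty Normal without overlap (0.33, SE 0.11, adjusted p = 0.12). HIF49 was higher than LNCaP/Empty by 0.43 (SE 0.11, adjusted p = 0.016), 1.35-fold and hence under the fold required, and by 0.36 (adjusted p = 0.073) without the library labelled HIF49 Normal replicate 1. With vehicle BAX probe 1 in HIF12 was 9.20 to 9.54, lower than under Normal by 0.41 (SE 0.11, adjusted p = 0.013), again under 1.5-fold, whereas the difference in LNCaP/Empty was -0.10 (SE 0.11, adjusted p = 0.72). BAX probe 2 did not pass in any comparison, and BAX probe 3 was detected on 1 array.

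**Figure D3:**
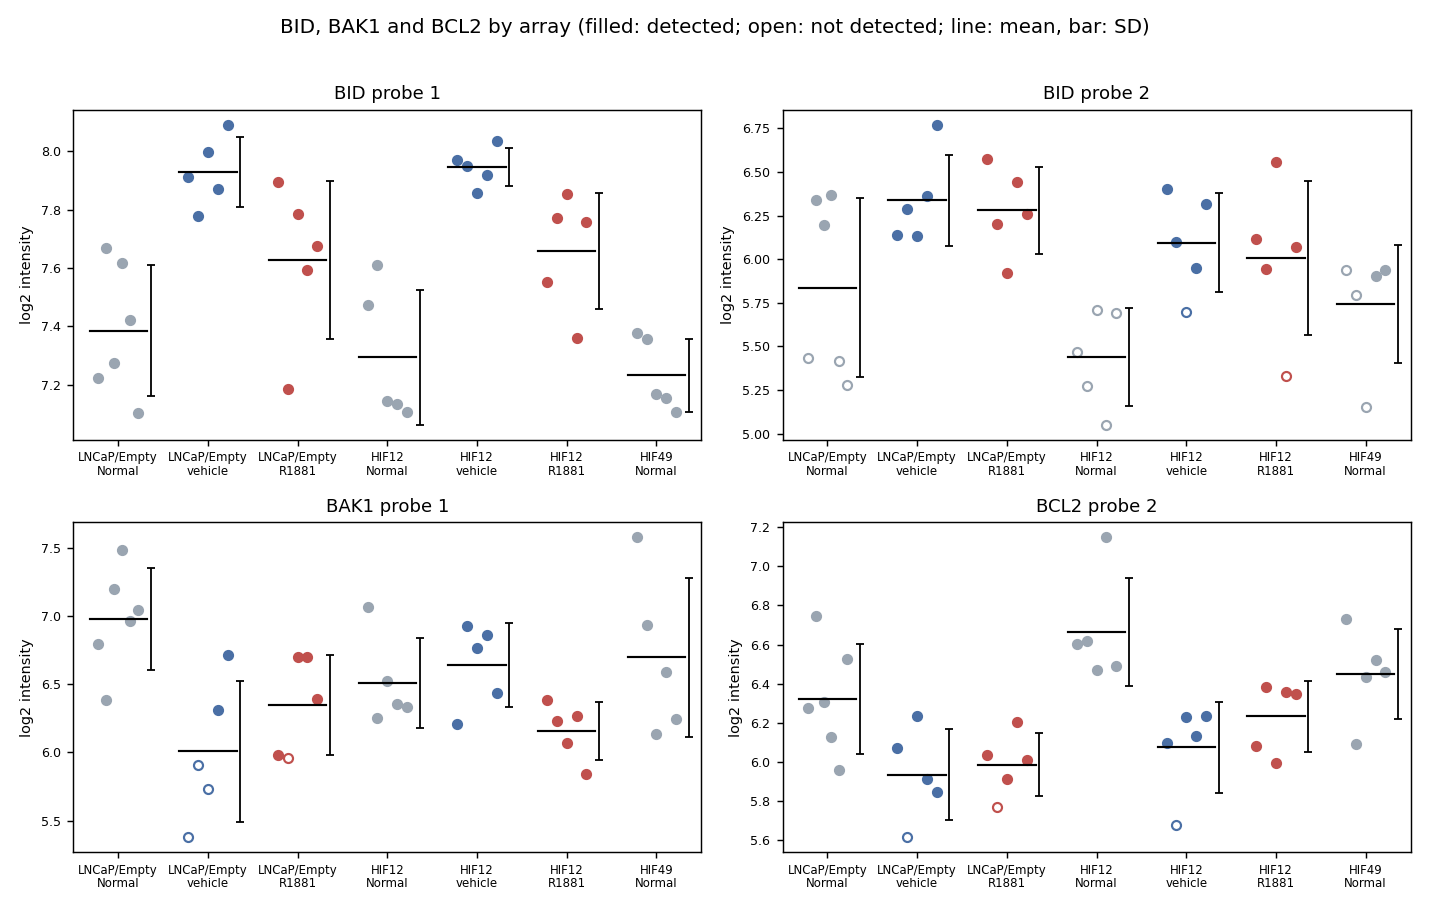
Log2 intensity of BID probes 1 and 2, BAK1 and BCL2 probe 2 on each of the 36 arrays, by line and condition (filled points detected, open points not detected, line mean, bar SD). BID probe 1 with vehicle, 7.78 to 8.09, lies above the Normal arrays, 7.10 to 7.67, in both lines, and BAK1 was detected on 2 of the 5 LNCaP/Empty vehicle arrays.

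As a list, the vehicle against Normal comparisons held 2 of 10 called in each line. In LNCaP/Empty both were lower (PMAIP1 and BAK1), where 2.93% of all genes were called lower and 3.29% higher. In HIF12 BID was higher and BCL2 lower, where 3.82% were called higher and 2.71% lower. The median difference over the members' leading probes was -0.10 in LNCaP/Empty and -0.04 in HIF12, and 0.00 over all probes in both. ENO2, the 1 detected neuroendocrine marker of 3, moved with these comparisons too, the summed level of the list being 224 to 283 under Normal and 298 to 390 with vehicle in LNCaP/Empty, and 211 to 285 against 370 to 467 in HIF12, while CHGA was detected on 1 array and SYP on none. The paper also lists ENO2 among the hypoxia-raised genes of glycolysis and of HIF-1 signaling. The part of ENO2 in the results was not tested. What set Normal apart from vehicle in culture is not stated, so the conditions that could separate them cannot be told apart. In bulk RNA, fewer cells expressing a gene and less RNA per cell cannot be told apart either.

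Under Normal, 0 of 10 members were called in any of the 3 comparisons between lines in limma. Of all genes, 0.998% were called higher and 1.04% lower for HIF12 against LNCaP/Empty. For HIF49 against LNCaP/Empty, 0.863% were called in each direction. For HIF49 against HIF12, 1.91% were called higher and 1.32% lower. At an unadjusted p under 0.05 in limma, 4, 5 and 3 of the 22 probes passed in these comparisons, in that order. This threshold is looser than that of the calls, and the share of all probes passing it was not taken. Without the library labelled HIF49 Normal replicate 1 these counts of members called were still 0. The probe counts and shares for HIF49 include that library. Without it, all genes called went from 346 to 340 against LNCaP/Empty and from 645 to 635 against HIF12.

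**Figure D4:**
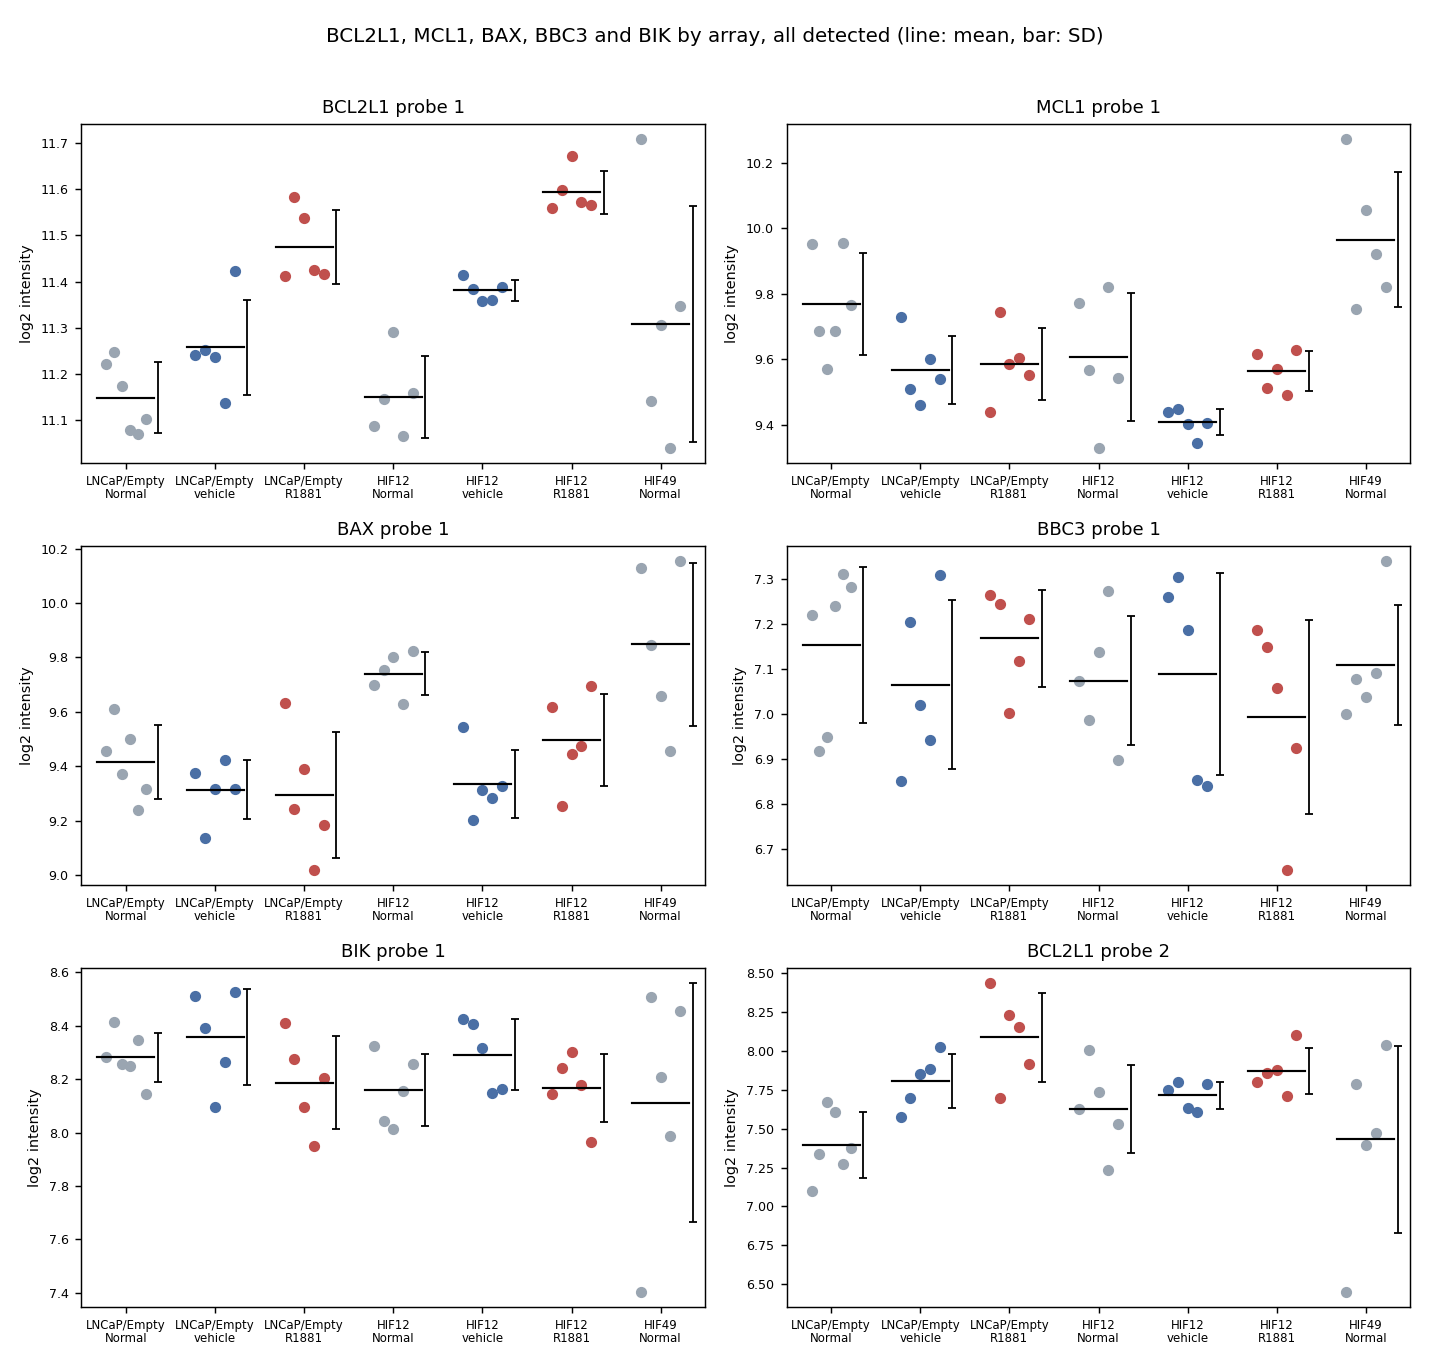
Log2 intensity of BCL2L1 probes 1 and 2, MCL1 probe 1, BAX probe 1, BBC3 and BIK on each of the 36 arrays, by line and condition, all detected, with the mean as a line and the SD as a bar. The vertical ranges are narrow and differ between panels, and the library labelled HIF49 Normal replicate 1 lies in the last group, at 7.40 for BIK, 6.45 for BCL2L1 probe 2 and 10.27 for MCL1.

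Further genes of the pathway were taken in 5 lists. Of 14 other BCL2 relatives, 2 were called higher and 1 lower with vehicle in LNCaP/Empty, and 3 higher and 1 lower in HIF12. Over all genes 3.29% were called higher and 2.93% lower in the former, and 3.82% and 2.71% in the latter. BAD, a BH3-only protein that binds BCL2 and BCL-xL, is given by its called probe of largest change. That probe was detected on no Normal array of either line and on all vehicle arrays. It was at least 2.57-fold higher with vehicle in LNCaP/Empty (adjusted p = 1.5e-10) and at least 2.27-fold higher in HIF12 (adjusted p = 1.2e-10). BNIP3L, a mitophagy receptor, rose by 0.62 (SE 0.15, adjusted p = 0.0047) and by 1.04 (SE 0.18, adjusted p = 7.6e-05, on another probe), and BCL2L12 fell by 0.61 (SE 0.09, adjusted p = 2.3e-06) and, on another probe, 0.69 (SE 0.09, adjusted p = 1.7e-06). The calls of BAD held in all alternatives, and those of BNIP3L and BCL2L12 in LNCaP/Empty were lost in 7 and 6 of 21. BMF, a BH3-only protein, rose with vehicle in HIF12 by 0.84 (SE 0.22, adjusted p = 0.011), a call lost in 4 of 20 alternatives. On another probe, BMF was at least 1.13-fold higher in HIF12 vehicle than in LNCaP/Empty vehicle (adjusted p = 0.0033). LNCaP/Empty vehicle did not show that probe above background, and the call was lost in 6 of 20 alternatives. On that same probe BMF fell with R1881 in HIF12 by 0.59 (SE 0.13, adjusted p = 0.0082), a call lost in 13 of 20 alternatives.

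R1881 called 1 of 12 death receptor genes higher in each line, where 1.30% of all genes were called higher in LNCaP/Empty and 1.07% in HIF12. This was TNFRSF10B, the TRAIL receptor DR5, higher by 1.16 (SE 0.19, adjusted p = 1.2e-04) in LNCaP/Empty and by 0.61 (SE 0.08, adjusted p = 5.9e-06) on another probe in HIF12, the latter lost in 4 of 20 alternatives. Of 14 apoptosome genes, caspases and inhibitors, CASP6 was called higher (0.93, SE 0.20, adjusted p = 0.0012) and BIRC5 (survivin) lower (-0.59, SE 0.16, adjusted p = 0.0093) with vehicle against Normal in LNCaP/Empty, and BIRC5 lower in HIF12 (-0.67, SE 0.16, adjusted p = 0.0049). The call of BIRC5 was lost in 10 of 21 alternatives in LNCaP/Empty and in 3 of 20 in HIF12, and that of CASP6 in 3 of 21. The share of all genes called in these comparisons was 3.29% higher and 2.93% lower in LNCaP/Empty, and 2.71% lower in HIF12. The remaining death receptor call was TNFRSF10D, a decoy receptor, higher with vehicle in LNCaP/Empty (0.61, SE 0.11, adjusted p = 1.5e-04), a call lost in 7 of 21 alternatives.

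Among 14 p53 genes and targets, R1881 in LNCaP/Empty called PLK2, a kinase, higher (1.17, SE 0.21, adjusted p = 3.8e-04) and TP53INP1, a stress-response protein, lower (-0.83, SE 0.16, adjusted p = 8.1e-04), where 1.30% of all genes were called higher and 0.519% lower. In HIF12 R1881 called 0 of the 14 in limma, with 2 at an unadjusted p under 0.05. PLK2 was higher in HIF12 than in LNCaP/Empty with vehicle (1.05, SE 0.21, adjusted p = 0.0019) and under Normal (0.79, SE 0.20, adjusted p = 0.019). TP53I3, an oxidoreductase, was at least 1.40-fold higher in HIF12 vehicle (adjusted p = 0.0012), on a probe that no LNCaP/Empty vehicle array detected. On that probe it was 0.98 (SE 0.14, adjusted p = 1.8e-05) higher with R1881. Both calls of TP53I3 were lost in 3 of 20 alternatives and that of PLK2 with vehicle in 2 of 20. With vehicle against Normal, SESN1 rose by 1.18 (SE 0.08, adjusted p = 1.8e-13) in LNCaP/Empty and 0.87 (SE 0.08, adjusted p = 8.0e-10) in HIF12, and ZMAT3 fell by 0.70 (SE 0.09, adjusted p = 5.9e-07) and 0.65 (SE 0.10, adjusted p = 5.6e-06). TP53INP1 rose by 0.78 (SE 0.15, adjusted p = 2.5e-04) and, on another probe, 0.74 (SE 0.11, adjusted p = 6.7e-06), and SESN2 fell by 0.67 (SE 0.20, adjusted p = 0.024) in LNCaP/Empty, a call lost in 6 of 21 alternatives. The p53 list thus held 2 genes higher and 2 lower with vehicle in LNCaP/Empty, and 2 higher and 1 lower in HIF12, where the shares of all genes were 3.29% and 2.93%, and 3.82% and 2.71%. PLK2 was lower in HIF49 than in HIF12 under Normal (-0.72, SE 0.21, adjusted p = 0.035). That call was lost in 9 of 20 alternatives, among them the run without the library labelled HIF49 Normal replicate 1. The call of PLK2 under Normal in HIF12 was lost in 8 of 21.

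Of 12 transcription factors and ligases that act on the members, R1881 called FOXO1 higher (0.72, SE 0.14, adjusted p = 8.9e-04) and MYC lower (-0.63, SE 0.15, adjusted p = 0.014) in LNCaP/Empty. In HIF12 it called FOXO1 higher (0.60, SE 0.14, adjusted p = 0.013), and MYC (-0.61, SE 0.15, adjusted p = 0.026) and TSC22D3, a glucocorticoid-induced leucine zipper protein (-0.72, SE 0.15, adjusted p = 0.0041), lower. In HIF12 the calls of FOXO1 and MYC were lost in 11 and 12 of 20 alternatives and that of TSC22D3 in 1, and in LNCaP/Empty those of FOXO1 and MYC were each lost in 3 of 20. Over all genes R1881 called 1.30% higher and 0.519% lower in LNCaP/Empty, and 1.07% and 0.244% in HIF12. TRIB3, a pseudokinase induced by ATF4, fell by 0.96 (SE 0.09, adjusted p = 9.6e-10) with vehicle against Normal in LNCaP/Empty. FOXO3 rose there by 0.62 (SE 0.14, adjusted p = 0.0019) and TSC22D3 fell by 0.67 (SE 0.14, adjusted p = 0.0011), and in HIF12 FOXO1 fell by 0.90 (SE 0.14, adjusted p = 9.5e-06). The call of FOXO3 was lost in 5 of 21 alternatives, that of TSC22D3 in 2 of 21 and that of FOXO1 in 3 of 20. With vehicle against Normal 3.29% of all genes were called higher and 2.93% lower in LNCaP/Empty, and 3.82% and 2.71% in HIF12.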

How the data were processed

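Expression was measured on 36 arrays in 7 groups. The deposited intensity values were scanner values per probe with a detection p-value per array, to which the authors had applied no correction or normalization. A second deposited table held intensities that the authors had quantile normalized, on a linear scale. The methods describe LIMMA on corrected and normalized log2 values without naming the correction, and give an older array design than the probe table used here.

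Of 48107 probes, 2 with missing values were left out. Probes were named from the platform annotation, with symbols updated through RefSeq. Background was corrected by the nec function (limma 3.58.1, R 4.3.3), which takes negative controls from the detection p-values, adding 16. Quantile normalization and log2 transformation followed. Arrays carry no depth other than the number of probes detected, at a detection p under 0.01, and their number limits the precision. A linear model with 1 mean per group (lmFit, eBayes) used all arrays. A gene was called where any probe had a Benjamini-Hochberg adjusted p under 0.05 over 48105 probes and changed by 1.5-fold or more. Where no array of the lower group detected a probe, the fold given is a minimum, set against the dimmest detected signal of each array or the probe itself, whichever was higher. The call and its adjusted p belong there to the fitted difference, which includes values below detection. The minimum fold itself can lie under 1.5-fold. No dim probes were removed.

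The comparisons were R1881 against vehicle in 2 lines, HIF12 against LNCaP/Empty in 3 conditions, HIF49 against both lines under Normal, vehicle against Normal in 2 lines, and the difference of the R1881 effects. The difference of the vehicle against Normal effects was added after the values were seen. The members, the 5 further gene lists and the markers were chosen with earlier results of these data known. Members were described by every probe, PMAIP1 with the 5 genes of highest correlation, and further lists by their called genes, up to 3 in each direction. A gene of the further lists was given by its called probe of largest change in that comparison, and its other probes were not described. The analysis was repeated on uncorrected intensities and with normexp (offset 50), with median scaling and with cyclic loess, on the normalized table, on probes detected on 5 or more arrays, within the arrays compared, with a block for replicate number or for runs of 12 or 6 array numbers, and without each array. The fit was tested on simulated data.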

Additional observations from a re-analysis of the deposited data

Results flagged for a closer look

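The 16 member probes detected on at least 5 of the 36 arrays gave 112 sets of values over the 7 groups. In 5 of these sets 1 array lay far from the others by Dixon's gap test, where chance flags about 1 in 20. BCL2 probe 2 was high in HIF12 Normal replicate 4, at 7.15 against 6.62 for the nearest array, and low in HIF12 vehicle replicate 2, at 5.68 against 6.10, and the call of BCL2 between these groups was lost without either array. BID probe 2 was low in HIF49 Normal replicate 3, at 5.15 against 5.80. BID probe 3 was high in HIF12 Normal replicate 3, at 6.01 against 5.48. BBC3 was high in HIF49 Normal replicate 5, at 7.34 against 7.09. None of the 44 differences of effects between the lines passed after adjustment in limma.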

How the results depend on the processing

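The R1881 increase of PMAIP1 on its bright probe was called in both lines under all 10 alternative settings and all 10 runs that left out an array, at 1.11 to 1.59 on the log2 scale in LNCaP/Empty and 0.85 to 1.23 in HIF12. Over all member probes, alternatives and left-out arrays, 5253 values kept their side of the threshold, 47 lost a call, 2 gained a call and 0 reversed.

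Without background correction, with plain normexp and in the deposited table, the count of members called fell from 1 to 0 for HIF12 against LNCaP/Empty with vehicle and with R1881, and from 2 to 0 for vehicle against Normal in LNCaP/Empty and in HIF12. All these values kept their direction with adjusted p-values under 0.05 and differences under 1.5-fold. Running numbers in blocks of 6 also gave 0 for both HIF12 against LNCaP/Empty comparisons, and cyclic loess gave 1 for vehicle against Normal in HIF12. On leaving out an array the counts ranged from 0 to 1 for both HIF12 against LNCaP/Empty comparisons, from 2 to 3 for vehicle against Normal in LNCaP/Empty and from 1 to 2 in HIF12. The count of all genes called was 33.2% to 53.6% of the main count without background correction and in the deposited table, and 38.9% to 60.1% with plain normexp, over 9 comparisons. The uncorrected run and the deposited table gave nearly the same values for the member calls that were lost. They are therefore not independent alternatives where lost calls are counted.

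Same-numbered arrays did not deviate together throughout, so replicate numbers were not taken as pairs. The replicate block gave 0.65 for BID probe 2 in HIF12 vehicle against Normal (adjusted p = 0.054), and changed no other member's call (of the further genes, BIRC5 and BCL2L12 in LNCaP/Empty vehicle against Normal and PLK2 in HIF12 against LNCaP/Empty under Normal also lost theirs), with counts of members called of 1 for R1881 in each line. Probes near background, BCL2L11 and probes 3 and 4 of BCL2 among them, could not show changes.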
